A study of Arabidopsis thaliana with 12 samples.

Results

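The response of wild-type Arabidopsis thaliana seedlings to sucrose was described from 6 of the 12 ATH1 arrays in the series, the 3 titled WT with sucrose and the 3 titled WT without it, over all 22746 probe sets that are not array controls. Both groups are WT seedlings 8 days old, germinated on half-strength MS medium that held 1.5% sucrose for one group and no sucrose for the other. Each array is 1 biological replicate by its title, and nothing in the labels says how the replicates were grown apart, so the p-values measure the spread between these arrays. The other 6 arrays come from ESTpro:FUS3-strong line 2-8, a single transgenic line in which estradiol drives the seed regulator FUS3, germinated with and without 1.5% sucrose on medium with 5 µM estradiol. They lend residual spread to the fit and serve below to show where a WT response differed in that line. The labels name estradiol for the medium of line 2-8 and do not say whether the WT medium held it. The 12 arrays hold no osmotic control, so sucrose as a carbon source and as a solute cannot be told apart.

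Plants read sucrose and its hexoses both as fuel and as signals. Hexokinase, the SnRK1 kinase, trehalose 6-phosphate and the TOR kinase are the best known parts of that reading: SnRK1 is active when carbon is scarce and favours breakdown of amino acids and other reserves, and TOR favours growth when carbon is plentiful. In seedlings, sugar is also known to raise anthocyanin synthesis and starch storage and to lower genes of photosynthesis.

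The WT arrays separated by sucrose. The first principal component of the 6 WT arrays held 57% of their variance and separated the 3 with sucrose from the 3 without. Correlations over probe sets between arrays lay between 0.987 and 0.989 within either group and between 0.967 and 0.975 across them. Array medians lay between 415 and 429 with sucrose, against 375 to 385 without it, although all arrays had been scaled to the same trimmed mean. The ratios of 3' to 5' control probe sets, a sign of RNA quality, overlapped between groups in every set for GAPDH, actin and ubiquitin. Exact two-sided permutation p lay between 0.2 and 0.9, with n = 3 against 3 and 0.1 the smallest p possible. The actin ratio lay between 14.2 and 19.2 over the WT arrays in the first set and between 2.79 and 3.26 in the second. The 25S ribosomal RNA control read 3264, 2600 and 4609 with sucrose, against 3015, 2259 and 2198 without it (exact p = 0.2). None of the 4 reference genes was called: AT4G34270 had a log2 change of -0.42 (adjusted p = 0.068), AT4G26410 -0.18 (adjusted p = 0.12), PEX4 -0.09 (adjusted p = 0.34) and AT2G28390 -0.10 (adjusted p = 0.53). With array medians subtracted 3 of them were called lower. AT4G34270 was also called on leaving out WT sucrose replicate 1 (-0.61, adjusted p = 0.00674) or replicate 1 of FUS3 without sucrose (adjusted p = 0.039), with the dim probe sets left out (0.0418) and with the replicate block (0.0327).

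Changes are given as WT with sucrose minus WT without sucrose in log2(signal + 16), a scale that understates the change of dim genes. A call means an adjusted p below 0.05 (Benjamini-Hochberg) in a limma fit over all 22746 probe sets, and 5919 of them or 26.0% had one, 3618 higher (15.9%) and 2301 lower (10.1%) with sucrose. The split depends on the scaling: with each array's median subtracted, which shifts all changes by -0.15, 2333 were called higher and 4235 lower, so the share of higher calls went down to 35.5%, against 61.1% as deposited. Changes of at least 2-fold were fewer and mostly upward, 930 higher (4.09%) and 317 lower (1.39%), and at least 8-fold 27 higher and 10 lower. The 2 groups of arrays did not overlap at 9012 probe sets (39.6%). Genes picked below for a small adjusted p are favoured to meet this, so where it is stated for them it adds no separate support. Calls were rarest where signal was dim: among 5 equal bins of probe sets by mean signal, 3.8% passed in the dimmest and 45.3% in the brightest. Counted once per locus among the 13355 loci named by a probe set of their own, 22.9% were called, 14.0% higher and 8.90% lower, with a median log2 change of 0.01, and the gene groups below are to be read against those shares. A locus is called measured below where a probe set names it alone. The probe table names no gene for 8730 of the tested probe sets and several for 503, so a locus not measured here may still be among them. The fit has no read depth behind it, and 3 arrays a group set its precision, with a median SE of 0.15.

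**Figure D1:**
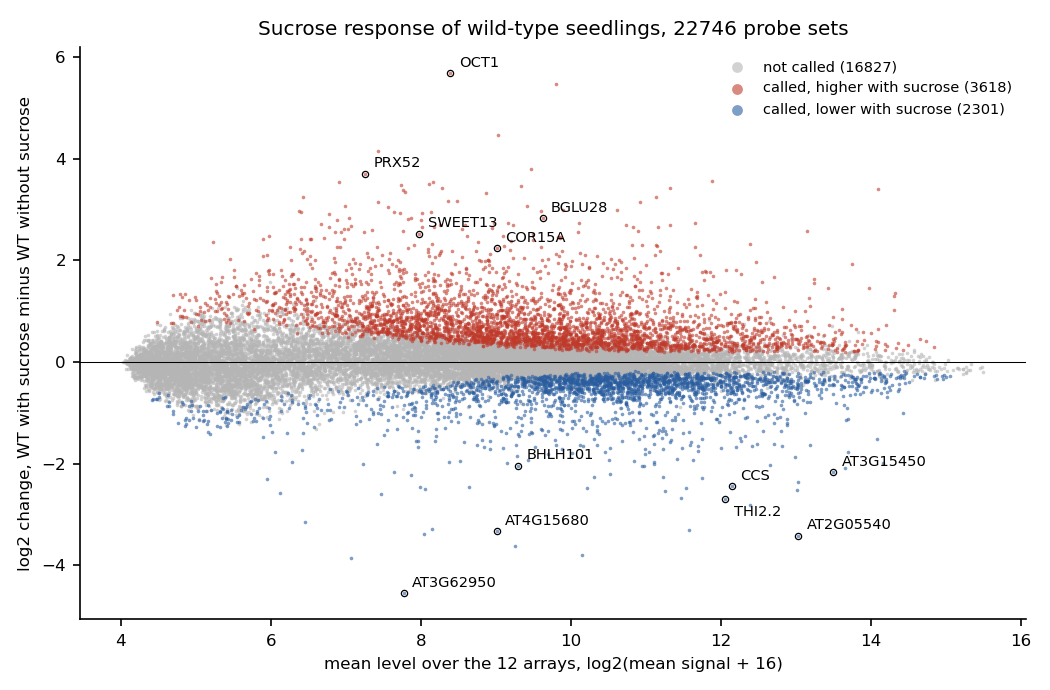
Each point is 1 of 22746 probe sets, with its mean level over the 12 arrays as log2(mean signal + 16) on the x axis and its log2 change, WT with sucrose minus WT without sucrose, on the y axis. Red points were called higher (3618), blue points lower (2301) and grey points were not called; circles mark 12 genes named in the text, from OCT1 at 5.68 to AT3G62950 at -4.55.

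Sugar transporters moved in both directions. Of 35 loci of the sugar transport list 15 were measured, 3 of them called higher and 5 lower. No member of the STP and SUC sugar importer family was measured. All called loci but TMT2 are SWEETs, the bidirectional sugar transporters of plasma membrane and tonoplast. SWEET13, a sucrose exporter, had signals of 408, 362 and 512 in WT with sucrose, against 49.9, 48.5 and 89.4 in WT without sucrose, a log2 change of 2.52 ± 0.25 (SE; adjusted p = 5.2e-06). SWEET14 had signals of 145, 171 and 154 in WT with sucrose, against 41.5, 10.7 and 34.0 in WT without sucrose, a change of 2.02 ± 0.27 (SE; adjusted p = 8.0e-05). For both, every array with sucrose lay above every array without it. Downward, SWEET2, a vacuolar hexose transporter of roots, read 842, 853 and 655 in WT with sucrose, against 1908, 1953 and 2539 in WT without sucrose, a change of -1.43 ± 0.12 (SE; adjusted p = 1.8e-06). The vacuolar transporter SWEET16 read 635, 782 and 557 in WT with sucrose, against 1398, 1273 and 1464 in WT without sucrose, with a change of -1.06 ± 0.13 (SE; adjusted p = 4.7e-05). SWEET10 read 199, 214 and 356 in WT with sucrose, against 483, 620 and 495 in WT without sucrose, a change of -1.05 ± 0.24 (SE; adjusted p = 0.0045). None of these 3 overlapped between groups either. SWEET10 and SWEET13 are near neighbours on chromosome 5 (20656193 to 20658001 and 20665068 to 20667312, TAIR10.1) and moved in opposite directions. The bright SWEET11, a phloem-loading sucrose exporter, and the vacuolar fructose transporter SWEET17 passed narrowly at -0.25 and -0.25 (adjusted p = 0.037 and 0.041). Their calls were lost when single arrays were left out: SWEET11 without replicate 1 or 2 of WT without sucrose or replicate 2 or 3 of WT with sucrose (adjusted p 0.0521 to 0.169), and SWEET17 without any one of the 6 WT arrays or FUS3 without sucrose replicate 2 (0.05 to 0.16). The tonoplast sugar importer TMT2 was higher by 0.38 ± 0.09 (SE; adjusted p = 0.0071), which median subtraction reduced to 0.23 (adjusted p = 0.072).

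Few loci of sucrose and starch metabolism were measured. The lists held 30 loci for sucrose and hexose metabolism, 16 for starch synthesis and 24 for starch breakdown. Among 7 of sucrose and hexose metabolism, cwINV6, a fructan exohydrolase of the cell wall invertase family, rose: its signals were 533, 446 and 237 in WT with sucrose, against 93.4, 125 and 92.5 in WT without sucrose, a log2 change of 1.75 ± 0.24 (SE; adjusted p = 1.1e-04). AT2G31390 read 6638, 7444 and 6600 in WT with sucrose, against 2919, 3403 and 3594 in WT without sucrose, a change of 1.06 ± 0.10 (SE; adjusted p = 3.5e-06). Both rose in all 3 arrays beyond the highest array without sucrose, and their sizes lie far from the list's median of 0.21. AT3G59480 was lower at -0.62 (adjusted p = 0.011), a call that ended on leaving out the array of replicate 3 in WT with sucrose (adjusted p = 0.0509). In starch synthesis, 2 of 3 measured loci were called higher, APL3 and APL4, large subunits of ADP-glucose pyrophosphorylase. APL3 read 344, 431 and 509 in WT with sucrose, against 91.5, 111 and 119 in WT without sucrose, a change of 1.84 ± 0.16 (SE; adjusted p = 1.4e-06). APL4 stood at 0.64 (adjusted p = 0.041), and its call was lost without replicate 1 or 2 of WT without sucrose, replicate 2 or 3 of WT with sucrose, or replicate 1 or 3 of FUS3 with sucrose (adjusted p 0.0534 to 0.165). In starch breakdown 2 of 4 measured loci were lower. The plastid disproportionating enzyme DPE1, which recycles maltotriose, read 875, 761 and 712 in WT with sucrose, against 1007, 1065 and 1019 in WT without sucrose, a change of -0.39 ± 0.09 (SE; adjusted p = 0.0033). PWD, the phosphoglucan water dikinase, stood at -0.26 (adjusted p = 0.026) and lost its call without replicate 1 or 2 of WT without sucrose or replicate 1 or 3 of WT with sucrose (adjusted p 0.0576 to 0.107).

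Amino acid breakdown was lower with sucrose. Of 13 measured loci, from 30 listed, 7 were called lower and 2 higher, with a median log2 change of -0.50. Beside the leucine pathway genes MCCA (-2.26) and IVD (-1.95), the fall took in ETFQO, which passes electrons from branched-chain oxidation to ubiquinone, with signals of 768, 772 and 785 in WT with sucrose, against 1893, 1633 and 1786 in WT without sucrose and a change of -1.17 ± 0.09 (SE; adjusted p = 3.6e-07). ALDH6B2, the methylmalonate semialdehyde dehydrogenase of valine breakdown, read 5030, 3924 and 4925 in WT with sucrose, against 10080, 9628 and 8970 in WT without sucrose, a change of -1.05 ± 0.10 (SE; adjusted p = 3.2e-06). MCCB, the second subunit of methylcrotonyl-CoA carboxylase, read 1678, 1477 and 1419 in WT with sucrose, against 3076, 2604 and 2744 in WT without sucrose, a change of -0.87 ± 0.08 (SE; adjusted p = 2.8e-06). In all 3 genes the arrays without sucrose lay above every array with it. The 2-hydroxyglutarate dehydrogenase D2HGDH, at -0.50 (adjusted p = 0.0019), and the lysine-ketoglutarate reductase locus AT4G33150, at -0.51 (adjusted p = 0.0024), fell less. AT5G09300 of the same list rose by 0.68 ± 0.12 (SE; adjusted p = 6.7e-04). AT5G38710 was called higher at 0.75 (adjusted p = 0.021), a call lost without replicate 2 or 3 of WT without sucrose or replicate 2 of WT with sucrose (adjusted p 0.0586 to 0.0971). Of 21 SnRK1 and starvation markers 4 were measured, and only AKINBETA1, a regulatory subunit of SnRK1, was called. It had signals of 1723, 1662 and 1520 in WT with sucrose, against 4460, 3796 and 4235 in WT without sucrose, a log2 change of -1.34 ± 0.09 (SE; adjusted p = 2.2e-07).

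Glycolysis and the pentose phosphate pathway were modestly higher. Of 8 measured glycolysis loci, from 35 listed, 5 were called higher and none lower, with a median log2 change of 0.39. AT5G63680 read 1861, 2109 and 2007 in WT with sucrose, against 1131, 1118 and 1178 in WT without sucrose, a change of 0.79 ± 0.08 (SE; adjusted p = 8.3e-06). AT5G08570 rose by 0.59 ± 0.09 (SE), AT1G12000 by 0.45 ± 0.10 and AT1G76550 by 0.41 ± 0.09. AT1G20950 stood at 0.37 (adjusted p = 0.016), and its call was lost without replicate 1 of WT without sucrose or replicate 1 or 2 of WT with sucrose (adjusted p 0.0589 to 0.0703). GAPC2, the bright cytosolic glyceraldehyde-3-phosphate dehydrogenase, changed by 0.09 (adjusted p = 0.40) and was not called. All 3 measured pentose phosphate loci, of 15 listed, were called higher. AT5G41670 read 3495, 3412 and 3150 in WT with sucrose, against 1681, 1781 and 1860 in WT without sucrose, a change of 0.91 ± 0.07 (SE; adjusted p = 5.8e-07), while AT1G64190 rose by 0.39 ± 0.09 and AT3G02360 by 0.35 ± 0.07 (SE). With array medians subtracted AT3G02360 was no longer called (0.20, adjusted p = 0.061).

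Genes of anthocyanin decoration were higher with sucrose. Of 24 flavonoid and anthocyanin loci listed 8 were measured. Among these 7 were called higher, with a median log2 change of 1.30, against 14.0% of all named loci. Around DFR (2.45), which makes leucoanthocyanidins, stood the enzymes that attach sugars and acyl groups. UF3GT, which adds xylose to the anthocyanin glucoside, read 304, 307 and 383 in WT with sucrose, against 141, 96.5 and 113 in WT without sucrose, a change of 1.39 ± 0.18 (SE; adjusted p = 5.3e-05). The flavonol rhamnosyltransferase UGT78D1 read 1527, 1431 and 1599 in WT with sucrose, against 635, 649 and 671 in WT without sucrose, a change of 1.20 ± 0.08 (SE; adjusted p = 1.6e-07). AT5MAT, the anthocyanin malonyltransferase, read 135, 122 and 108 in WT with sucrose, against 63.0, 6.24 and 37.2 in WT without sucrose, a change of 1.59 ± 0.35 (SE; adjusted p = 0.0041). In each the groups stood apart; AT5MAT was dim without sucrose and spread widely there. AT4G14090, in the same list, rose by 2.18 ± 0.22 (SE; adjusted p = 7.2e-06). The chalcone isomerase-like protein CHIL rose less, by 0.68 ± 0.13 (SE; adjusted p = 0.0017), and the 3-O-glucosyltransferase UGT78D2 by 0.42 (adjusted p = 0.0064), a call lost with array medians subtracted (0.27, adjusted p = 0.058). BAN, the anthocyanidin reductase of seed coat tannins, was at 4.33, 9.05 and 6.80 in WT with sucrose, against 10.1, 5.57 and 12.2 in WT without sucrose, and was not called.

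The deepest fall on the array was that of a CC-type glutaredoxin, AT3G62950. These are small redox proteins of land plants that include the floral regulators ROXY1 and ROXY2 and several nitrate-responsive members. Of 16 measured loci 8 were called lower and 4 higher. AT3G62950 had signals of 19.9, 4.26 and 4.58 in WT with sucrose, against 631, 464 and 603 in WT without sucrose, a log2 change of -4.55 ± 0.29 (SE; adjusted p = 1.2e-07). The 4 measured loci of a tandem cluster on chromosome 4, between 8925571 and 8938124 (TAIR10.1), fell together. AT4G15680 read 88.7, 115 and 58.1 in WT with sucrose, against 1281, 1014 and 751 in WT without sucrose, a change of -3.32 ± 0.24 (SE; adjusted p = 3.5e-07). AT4G15690 read 53.6, 41.3 and 28.1 in WT with sucrose, against 574, 507 and 636 in WT without sucrose, a change of -3.39 ± 0.34 (SE; adjusted p = 6.9e-06). All arrays with sucrose lay below all arrays without it, most of them below 100. AT4G15700 changed by -3.30 ± 0.21 and AT4G15660 by -2.60 ± 0.29 (SE). ROXY2 read 61.4, 60.6 and 62.1 in WT with sucrose, against 367, 356 and 322 in WT without sucrose, a change of -2.23 ± 0.16 (SE; adjusted p = 3.7e-07), and AT5G18600 read 1759, 1384 and 1202 in WT with sucrose, against 5193, 5454 and 5687 in WT without sucrose, a change of -1.92 ± 0.18 (SE; adjusted p = 2.8e-06). AT3G62930, which lies a few kilobases from AT3G62950 on chromosome 3, fell by less, at -1.18 ± 0.13 (SE; adjusted p = 1.6e-05). Upward, AT4G33040 read 663, 748 and 773 in WT with sucrose, against 150, 254 and 218 in WT without sucrose, a change of 1.76 ± 0.16 (SE; adjusted p = 2.0e-06). AT1G06830 rose by 1.14 ± 0.15 (SE; adjusted p = 5.7e-05) and AT2G47880 by 1.11 ± 0.19 (SE; adjusted p = 6.3e-04). The call of GRX480, a salicylate-responsive glutaredoxin, at 0.62 (adjusted p = 0.035), was lost without replicate 1 or 2 of WT without sucrose or replicate 2 or 3 of WT with sucrose (adjusted p 0.0615 to 0.138). Cross-hybridization between near-identical members of the cluster was not tested.

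**Figure D2:**
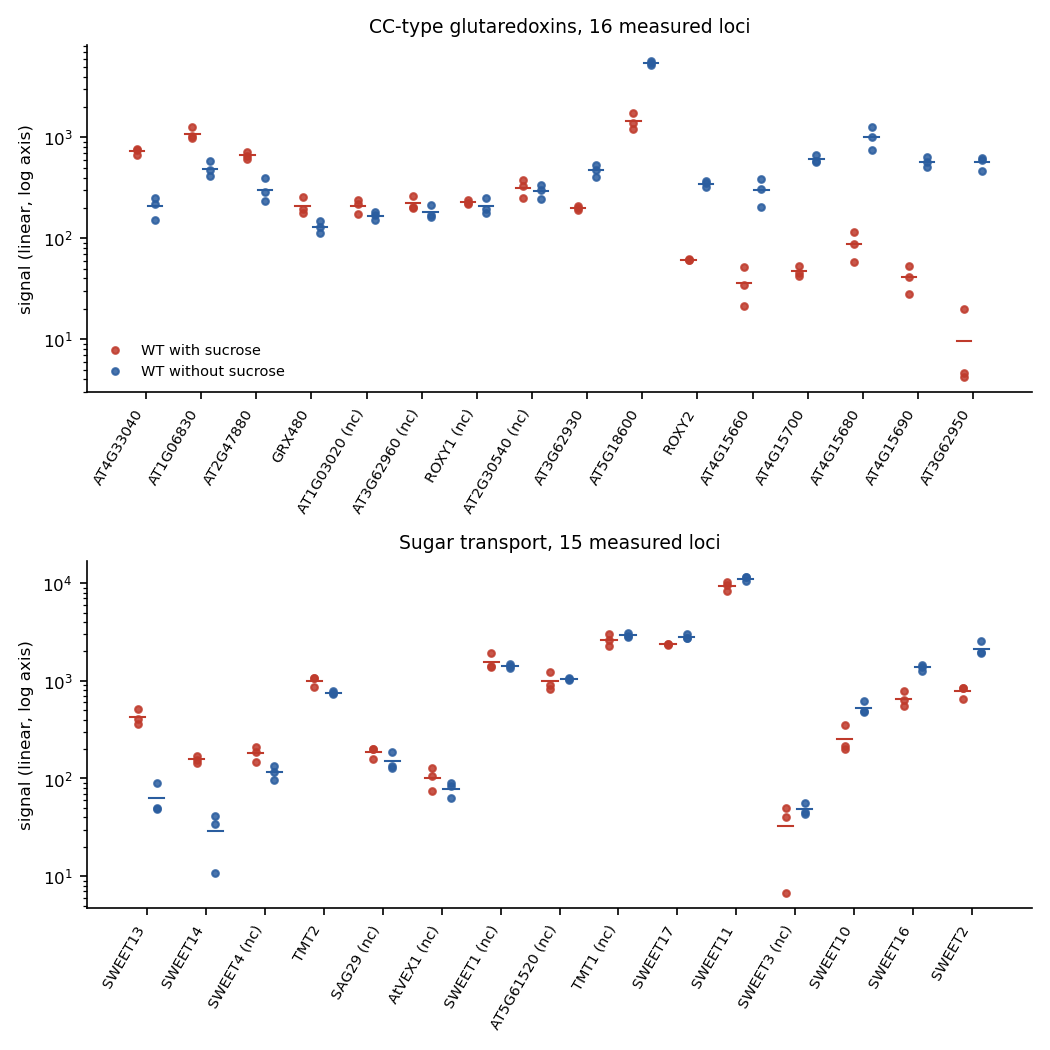
The y axis of both panels is the linear signal on a log scale; each dot is 1 array, red for WT with sucrose (left of each pair) and blue for WT without sucrose, bars are means of 3 arrays, and (nc) marks loci not called. The upper panel holds 16 CC-type glutaredoxins, with AT3G62950 and the chromosome 4 cluster at the lower right, and the lower panel 15 sugar transport loci, with SWEET13 and SWEET14 as its largest rises.

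Few nitrogen, sulfur and glucosinolate genes were measured: 1 of 36 nitrogen loci, 2 of 13 sulfur loci and 3 of 25 glucosinolate loci. All of these were called higher. Of 12 measured nitrate, peptide and ammonium transporters 6 were called higher and none lower. With array medians subtracted 4 of the 12 were called higher, with a median log2 change of 0.07. GTR1 and GTR2, which import glucosinolates into the phloem, led the transporters by adjusted p. GTR2 read 2328, 2225 and 2112 in WT with sucrose, against 907, 1147 and 1081 in WT without sucrose, a log2 change of 1.08 ± 0.12 (SE; adjusted p = 1.9e-05), and GTR1 read 1394, 1282 and 1532 in WT with sucrose, against 865, 900 and 899 in WT without sucrose, a change of 0.65 ± 0.08 (SE; adjusted p = 3.6e-05). Their groups stood apart. The 3 measured loci of glucosinolate synthesis were called higher as well: BCAT4, the first enzyme of methionine chain elongation, read 9177, 9842 and 8539 in WT with sucrose, against 4859, 5273 and 5014 in WT without sucrose, a change of 0.86 ± 0.10 (SE; adjusted p = 3.0e-05), and UGT74B1, which glucosylates thiohydroximates, changed by 0.88 ± 0.11 (SE; adjusted p = 6.1e-05). AT2G31790 rose by 0.35 (adjusted p = 0.0062), a call lost with array medians subtracted (0.20, adjusted p = 0.082). The measured nitrogen locus AT3G25790 read 361, 518 and 271 in WT with sucrose, against 112, 92.7 and 132 in WT without sucrose, a change of 1.60 ± 0.20 (SE; adjusted p = 4.1e-05). Of 2 measured sulfur loci, AT1G04770 rose by 1.05 ± 0.14 (SE; adjusted p = 5.8e-05). Sulfite reductase SIR rose by 0.33 (adjusted p = 0.0063) and was not called with array medians subtracted (0.18, adjusted p = 0.077).

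All 3 measured iron homeostasis loci, of 22 listed, were called lower. BHLH101, an iron-deficiency bHLH regulator, read 25.1, 15.9 and 36.4 in WT with sucrose, against 152, 140 and 169 in WT without sucrose, a log2 change of -2.04 ± 0.17 (SE; adjusted p = 9.0e-07). AT1G47400 fell by less, with 319, 253 and 376 in WT with sucrose, against 425, 436 and 532 in WT without sucrose and a change of -0.54 ± 0.12 (SE; adjusted p = 0.0043). Both stood apart between groups. PYE, the regulator POPEYE, was at -0.34 (adjusted p = 0.023), a call lost without replicate 2 or 3 of WT without sucrose or replicate 1 or 3 of WT with sucrose (adjusted p 0.0502 to 0.108).

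Most photosynthesis genes that were called fell by small amounts. Of 53 light-harvesting and photosystem loci listed 8 were measured. Among these 4 were called lower, all by under 0.4 on the log2 scale, and 1 higher, with a median of -0.19. PSBW, a small photosystem II subunit, had signals of 17290, 17870 and 17770 in WT with sucrose, against 21950, 23660 and 21640 in WT without sucrose, a change of -0.34 ± 0.09 (SE; adjusted p = 0.010), which quantile normalization took out of the calls (-0.21, adjusted p = 0.091). PSBY (-0.28), the photosystem I subunit PSAN (-0.26) and the ATP synthase subunit ATPC1 (-0.24) passed as narrowly. Their calls were lost without single arrays, PSBY without replicate 1 or 2 of WT without sucrose or replicate 1 or 3 of WT with sucrose (adjusted p 0.0531 to 0.0836). PSAN lost its call without any WT array other than replicate 3 without sucrose or without FUS3 with sucrose replicate 3 (0.0549 to 0.168), and ATPC1 without replicate 1 or 2 of WT without sucrose, replicate 1 or 3 of WT with sucrose, FUS3 without sucrose replicate 3 or FUS3 with sucrose replicate 1 or 3 (0.0518 to 0.138). Leaving out single arrays thus brought the number called lower to between 1 and 4, and quantile normalization to 0. The member that rose was LHCB4.3, a CP29 isoform of the light-harvesting antenna. LHCB4.3 read 2513, 2178 and 3071 in WT with sucrose, against 887, 1062 and 1298 in WT without sucrose, a change of 1.25 ± 0.15 (SE; adjusted p = 3.0e-05). Its paralog LHCB4.1 read 34140, 33760 and 36470 in WT with sucrose, against 38510, 41300 and 35610 in WT without sucrose. LHCB4.1 and LHCB4.2 changed by -0.14 and -0.15, neither past the threshold until array medians were subtracted (adjusted p = 0.00803 and 0.0107).

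Among the other plastid pathways, 2 of 3 measured photorespiration loci (13 listed) and 2 of 4 measured chlorophyll loci (26 listed) were called lower. AT1G80380, entered with photorespiration, read 4152, 2717 and 4239 in WT with sucrose, against 8213, 7381 and 7581 in WT without sucrose, a log2 change of -1.08 ± 0.13 (SE; adjusted p = 4.0e-05). The hydroxypyruvate reductase HPR changed by -0.33 (adjusted p = 0.0051), lost under quantile normalization (-0.22, adjusted p = 0.054). CHLM, the magnesium protoporphyrin methyltransferase, read 15650, 13320 and 12460 in WT with sucrose, against 19620, 22420 and 20050 in WT without sucrose, a change of -0.59 ± 0.10 (SE; adjusted p = 7.6e-04), and CHLI2, a magnesium chelatase subunit, changed by -0.37 ± 0.09 (SE; adjusted p = 0.0071). Of 22 Calvin cycle loci 4 were measured, and only AT1G56190 was called, higher by 0.30 (adjusted p = 0.0043). With array medians subtracted it was not called (0.15, adjusted p = 0.12), and 2 of the 4 were called lower. Of 69 measured plastid-encoded genes 1 was called, psbD at -0.79 (adjusted p = 0.044). Its call was lost without any single WT array, without FUS3 without sucrose replicate 2 or without any one array of FUS3 with sucrose (adjusted p 0.0503 to 0.136). The number called lower was 4 on leaving out replicate 1 or 3 of FUS3 without sucrose, with the replicate block or with dim probe sets left out, 3 with the 6 WT arrays alone and 2 without replicate 3 of WT without sucrose or replicate 1 of WT with sucrose. With array medians subtracted 15 were called lower. The 69 had a median change of -0.28, and their summed signal was 520500, 401400 and 459400 with sucrose, against 554600, 557900 and 479100 without it (exact p = 0.2).

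**Figure D3:**
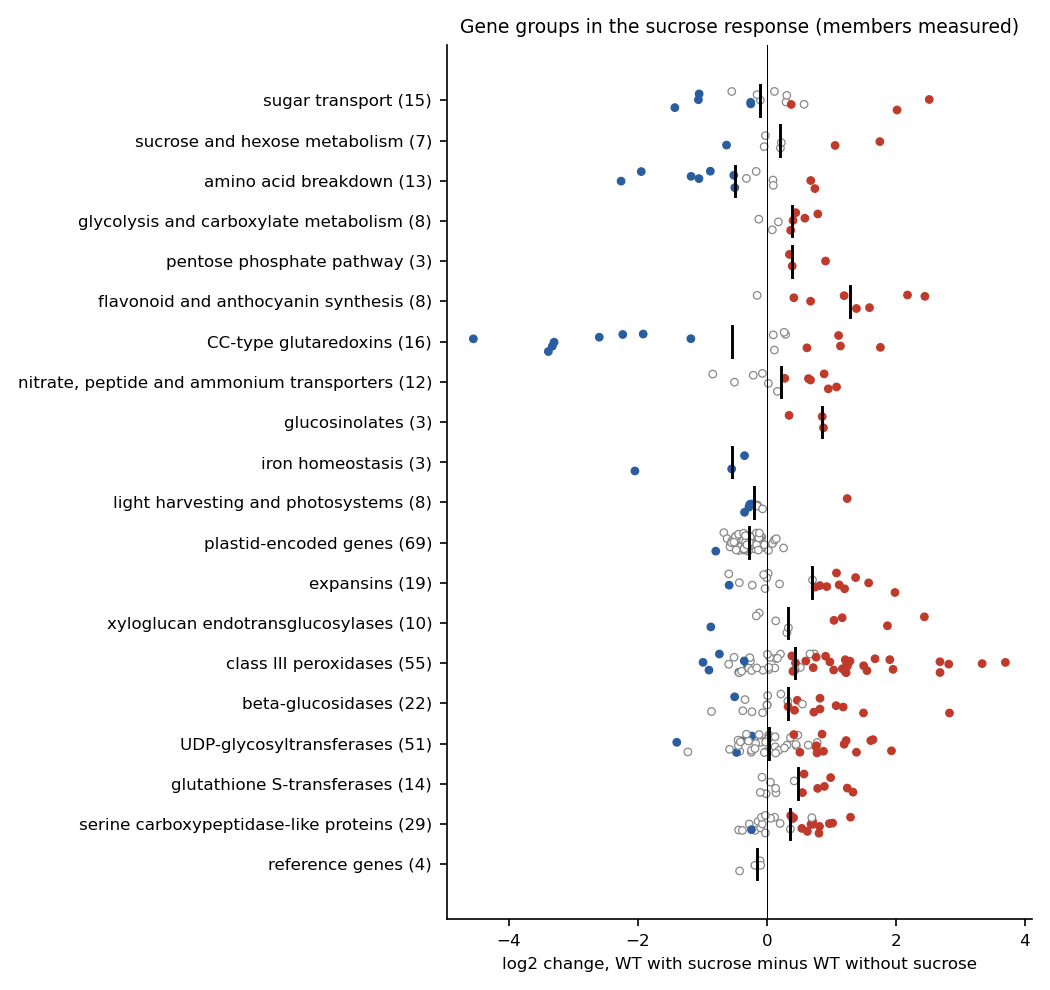
Each point is 1 measured locus of the group named at the left, with the number measured in brackets; the x axis is the log2 change, WT with sucrose minus WT without sucrose, red and blue points were called higher and lower, open points were not called, and black bars are group medians. Glutaredoxins spread from -4.55 to 1.76 and peroxidases reach 3.70, while the 69 plastid-encoded genes lie near their median of -0.28.

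Among cell wall genes, expansins and xyloglucan endotransglucosylases were called higher more often than lower. In the cellulose synthase family 1 of 8 measured loci was called higher, with a median log2 change of 0.05. With array medians subtracted 0 of those 8 were called higher and 1 lower. Of 19 measured expansins, the proteins that loosen walls during growth, 9 were called higher and 1 lower, with a median log2 change of 0.71. EXLB1, an expansin-like protein, read 2080, 2421 and 2551 in WT with sucrose, against 536, 537 and 672 in WT without sucrose, a change of 1.99 ± 0.14 (SE; adjusted p = 3.4e-07). The beta-expansin EXPB3 read 3684, 3973 and 3319 in WT with sucrose, against 1020, 1343 and 1291 in WT without sucrose, a change of 1.58 ± 0.11 (SE; adjusted p = 2.1e-07). EXPA4 read 6088, 4876 and 5274 in WT with sucrose, against 1723, 2568 and 1986 in WT without sucrose, a change of 1.38 ± 0.16 (SE; adjusted p = 2.8e-05). In these 3 every array with sucrose was above every array without it. EXPA15 rose by 1.21 ± 0.14, EXPA8 by 0.82 ± 0.10 and the root hair expansins EXPA18 and EXPA7 by 1.12 ± 0.15 and 0.93 ± 0.19 (SE). EXLA1 was the one called lower, at -0.58 ± 0.12 (SE; adjusted p = 0.003). Of 10 measured xyloglucan endotransglucosylases, which cut and rejoin wall xyloglucan, 4 were called higher and 1 lower. XTH19 read 1365, 1717 and 1473 in WT with sucrose, against 382, 389 and 436 in WT without sucrose, a change of 1.87 ± 0.11 (SE; adjusted p = 8.5e-08). XTH26 was dim without sucrose, with 93.1, 167 and 127 in WT with sucrose, against 1.98, 3.74 and 33.8 in WT without sucrose and a change of 2.44 ± 0.38 (SE; adjusted p = 2.6e-04). XTH20 changed by 1.17 ± 0.20 and XTH18, next to XTH19 on chromosome 4, by 1.04 ± 0.17 (SE). Opposite to them, EXGT-A3 read 4334, 5551 and 4493 in WT with sucrose, against 8471, 8693 and 8951 in WT without sucrose, a change of -0.87 ± 0.09 (SE; adjusted p = 7.6e-06).

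Class III peroxidases, secreted enzymes that cross-link or loosen walls, were mostly called, and mostly higher. Of 73 loci 55 were measured, 27 of them higher and 6 lower, against 14.0% and 8.90% of all named loci, with a median log2 change of 0.44 and 0.29 after median subtraction. Leaving out single arrays gave 25 to 28 higher and 3 to 6 lower, with 3 lower on leaving out sucrose-free replicate 1 or WT sucrose replicate 3. PRX52, which takes part in lignin formation in stems, read 519, 530 and 309 in WT with sucrose, against 12.9, 10.0 and 41.3 in WT without sucrose, a change of 3.70 ± 0.29 (SE; adjusted p = 7.8e-07). AT4G08780 read 857, 662 and 677 in WT with sucrose, against 69.5, 113 and 124 in WT without sucrose, a change of 2.69 ± 0.19 (SE; adjusted p = 2.7e-07), and its neighbour Prx37 read 817, 845 and 793 in WT with sucrose, against 183, 211 and 226 in WT without sucrose, a change of 1.91 ± 0.13 (SE; adjusted p = 1.7e-07). AT4G36430 was at 2731, 2721 and 1862 in WT with sucrose, against 547, 594 and 684 in WT without sucrose, a change of 1.96 ± 0.16 (SE; adjusted p = 9.9e-07). AT3G21770 changed by 1.24 ± 0.09 (SE). AT1G34510 (3.34), AT5G06730 (2.82) and AT3G49960 (2.69) were also among the 20 largest rises. The clearest fall was AT3G01190, which read 603, 691 and 730 in WT with sucrose, against 1263, 1322 and 1472 in WT without sucrose, a change of -0.99 ± 0.11 (SE; adjusted p = 1.8e-05). Summed over the 55 loci, peroxidase signal was 74070, 82310 and 76490 with sucrose, against 56600, 56120 and 59120 without it, the full separation that gives the smallest exact p of 0.1.

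**Figure D4:**
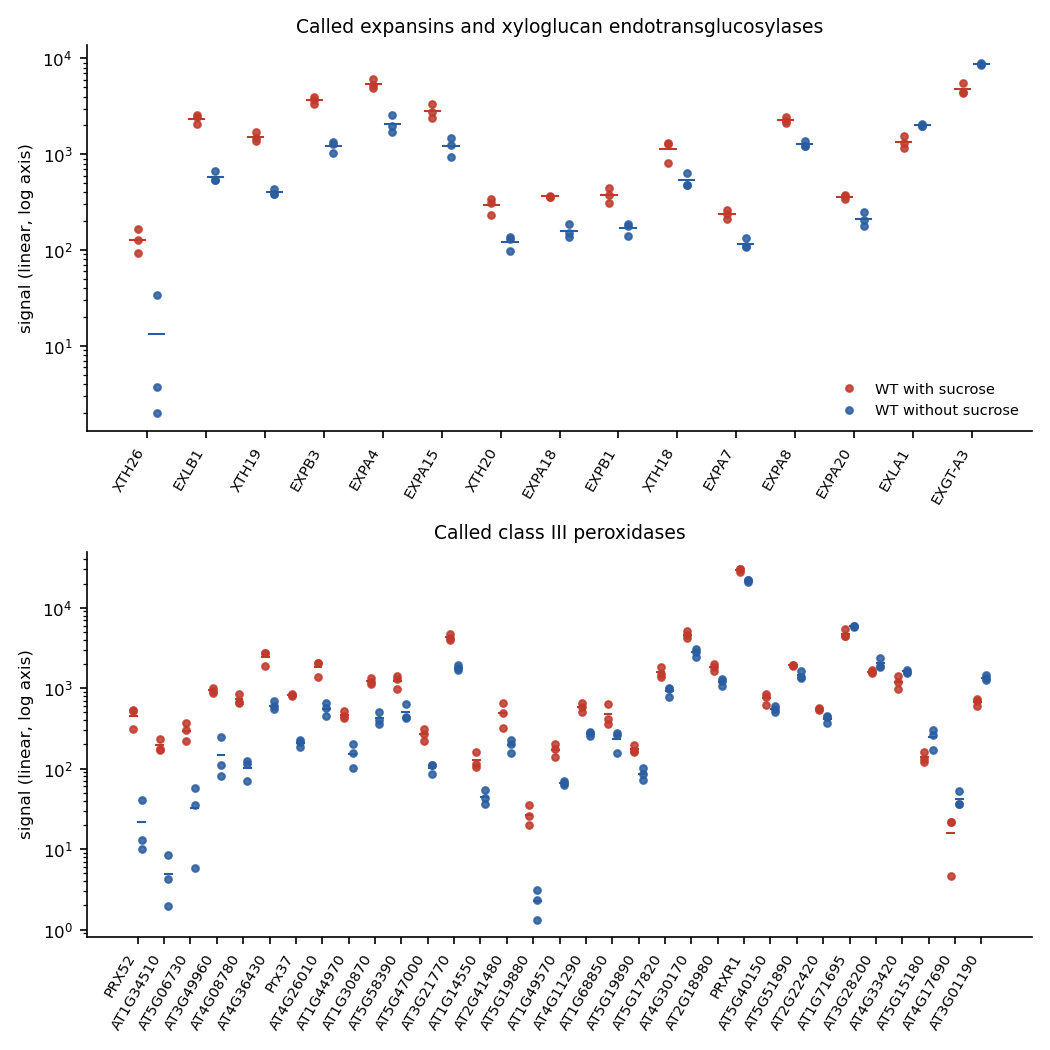
The y axis of both panels is the linear signal on a log scale; each dot is 1 array, red for WT with sucrose (left of each pair) and blue for WT without sucrose, and bars are means of 3 arrays. The upper panel holds the called expansins and xyloglucan endotransglucosylases and the lower panel the 33 called peroxidases, both ordered by log2 change, so that the 27 peroxidases higher with sucrose stand left of the 6 lower ones.

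Markers of cell types were set beside these rises. Of 30 root marker loci 4 were measured: EXPA18 and EXPA7 rose as given above, while AGL21 changed by 0.38 (adjusted p = 0.39) and PYK10, the beta-glucosidase of root endoplasmic reticulum bodies, by 0.00 (adjusted p = 0.98), neither called. Their summed signal, mostly PYK10, ranged from 25220 to 30960 with sucrose, against 25560 to 30110 without it (exact p = 0.8). Of 4 guard cell lineage loci, SPCH was at -0.64 (adjusted p = 0.045), with overlapping groups and a call lost without replicate 1 or 2 of WT without sucrose, replicate 3 of WT with sucrose, replicate 2 or 3 of FUS3 without sucrose or replicate 1 or 3 of FUS3 with sucrose (adjusted p 0.0512 to 0.198). FMA (-0.37), MUTE (-0.21) and STOMAGEN (0.21) were not called, although STOMAGEN passed on leaving out WT sucrose replicate 2 (0.30, adjusted p = 0.0448). The list's sum ranged from 2322 to 2783 with sucrose, against 2541 to 2709 without it (exact p = 0.8). Of 26 xylem loci only HCT and GUT2 were measured, and both changed by 0.07 and were not called. Seed markers were dim, with a sum from 131 to 223 with sucrose, against 172 to 220 without it (exact p = 0.9). PAP85, a vicilin-like seed storage globulin, was lower at -0.79 (adjusted p = 1.1e-04), and OLEO3 (-0.40) and LEA4-5 (0.83) were not called. OLEO3 was called lower with array medians subtracted (-0.55, adjusted p = 0.0109), under quantile normalization (0.0139), with 1 added before log2 (0.0432), with dim probe sets left out (0.0347) and on leaving out sucrose-free WT replicate 3 (0.0043) or WT sucrose replicate 1 (0.043). LEA4-5, a late embryogenesis abundant protein, was called higher on leaving out WT sucrose replicate 1 (1.28, adjusted p = 0.00114), with dim probe sets left out (0.0372) and with the replicate block (0.00727). Root share was not measured directly: in whole seedlings more cells of a type and more RNA per cell cannot be told apart, and the part of root growth in the wall gene changes was not tested.

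In 3 families that conjugate or release small molecules, most calls were upward, and most other members were not called. Of 22 measured beta-glucosidases 10 were called higher and 1 lower. BGLU28, which releases sulfur from glucosinolates when sulfur is short, read 564, 581 and 662 in WT with sucrose, against 53.2, 75.4 and 86.3 in WT without sucrose, a log2 change of 2.83 ± 0.24 (SE; adjusted p = 1.4e-06). Its neighbour on chromosome 2, BGLU15, which acts on flavonol bisglycosides, read 1344, 1145 and 1200 in WT with sucrose, against 527, 578 and 619 in WT without sucrose, a change of 1.08 ± 0.10 (SE; adjusted p = 3.4e-06). Both were above the sucrose-free arrays throughout. BGLU27 and BGLU19 were dim and changed by 1.50 ± 0.28 (SE; adjusted p = 0.0012) and 1.19 ± 0.24 (SE; adjusted p = 0.0019). BGLU16, next to BGLU27 on chromosome 3, was lower at -0.50 (adjusted p = 0.011), a call that ended on leaving out sucrose-free WT replicate 1 (adjusted p = 0.0618) or WT sucrose replicate 2 (0.0509). Of 14 measured glutathione S-transferases, which conjugate glutathione to small molecules, 7 were called higher and none lower. GSTU20 read 11010, 13640 and 11600 in WT with sucrose, against 5985, 6084 and 6063 in WT without sucrose, a change of 0.99 ± 0.09 (SE; adjusted p = 2.3e-06). GSTU23 changed by 1.34 ± 0.19, ATGSTF13 by 1.25 ± 0.21, GSTU25 by 0.89 ± 0.18 and GSTU27 by 0.79 ± 0.08 (SE). Serine carboxypeptidase-like proteins, among them acyltransferases, were higher at 12 of 29 and lower at 1, which lost its call under most alternatives. Of these scpl35 read 1922, 2655 and 2178 in WT with sucrose, against 861, 894 and 939 in WT without sucrose, a change of 1.30 ± 0.11 (SE; adjusted p = 9.1e-07), and scpl28, scpl29 and scpl48 changed by 1.02, 0.81 and 0.72.

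UDP-glycosyltransferases were divided. Of 51 measured 13 were called higher and 4 lower. Those are 33.3%, which only just reached the share set for describing a family, against 22.9% of all named loci. Not every group that reached that share is described. Oil breakdown and the glyoxylate cycle had 1 of 4 measured loci called higher and 1 lower, and senescence had 1 of 3 called higher. The median log2 change was 0.03, which median subtraction turned to -0.12. Median subtraction gave 11 higher and 7 lower. Leaving out single arrays gave 12 to 14 higher and 1 to 6 lower: the 4 lower calls went down to 1 or 2 without FUS3 with sucrose replicate 3, any WT array without sucrose, or replicate 3 of WT with sucrose. The monolignol glucosyltransferase UGT72E2 read 2530, 2982 and 2406 in WT with sucrose, against 544, 726 and 783 in WT without sucrose, a change of 1.93 ± 0.16 (SE; adjusted p = 9.1e-07), and its paralog UGT72E3 changed by 1.23 ± 0.20 (SE; adjusted p = 4.9e-04). UGT71C1 changed by 1.65 ± 0.17 (SE; adjusted p = 8.0e-06) and the salicylate glucosyltransferase UGT74F1 by 1.61 ± 0.30 (SE; adjusted p = 0.001). In the other direction UGT73B1 read 392, 432 and 334 in WT with sucrose, against 1106, 1043 and 965 in WT without sucrose, a change of -1.40 ± 0.12 (SE; adjusted p = 1.8e-06). Its arrays with sucrose all lay below the lowest array without it.

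Regulator families differed in how many members were measured. Of 22 measured bZIP factors 3 were called higher and none lower, or 13.6%, against 22.9% of all named loci. Their median log2 change was 0.04, and with array medians subtracted 2 were called higher and 3 lower. Of 7 measured bHLH factors 1 was called higher and 2 lower. Of 7 WRKY factors, WRKY22, a factor of immune signalling and dark-induced senescence, was lower, with 354, 349 and 355 in WT with sucrose, against 893, 799 and 904 in WT without sucrose and a log2 change of -1.26 ± 0.14 (SE; adjusted p = 1.5e-05). WRKY42, a repressor of PHOSPHATE1, was dim and higher, with 69.9, 53.8 and 51.7 in WT with sucrose, against 17.7, 6.92 and 15.1 in WT without sucrose and a change of 1.36 ± 0.29 (SE; adjusted p = 0.0028). WRKY53, a senescence regulator, was called at 0.91 (adjusted p = 0.017), lost without replicate 1 or 2 of WT without sucrose or replicate 3 of WT with sucrose (adjusted p 0.0708 to 0.078). The clock and flowering gene GI read 619, 610 and 566 in WT with sucrose, against 1395, 1243 and 976 in WT without sucrose, a change of -0.98 ± 0.11 (SE; adjusted p = 2.5e-05). Of the cold and dehydration genes, COR15A, a chloroplast-protecting protein, read 530, 525 and 531 in WT with sucrose, against 65.4, 134 and 112 in WT without sucrose, a change of 2.23 ± 0.22 (SE; adjusted p = 5.1e-06), whereas the dehydrin COR47 read 7158, 8425 and 7132 in WT with sucrose, against 11110, 9956 and 11180 in WT without sucrose, a change of -0.51 ± 0.08 (SE; adjusted p = 4.0e-04). The 12 measured auxin response genes had 3 higher and 1 lower. GH3.17, which conjugates auxin to glutamate, rose by 0.45 ± 0.10 (SE; adjusted p = 0.0032). GH3.3 (0.61), IAA20 (1.32) and IAA18 (-0.27) were called too. Each lost its call without single arrays: GH3.3 without replicate 3 of WT without sucrose or replicate 2 or 3 of WT with sucrose (adjusted p 0.0576 to 0.0686), IAA20 without replicate 1 of WT without sucrose or replicate 1 or 3 of WT with sucrose (0.056 to 0.117), and IAA18 without any WT array other than replicate 3 with sucrose (0.052 to 0.155). None of 6 measured cytokinin response regulators was called.

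Among probe sets that name 1 gene, the largest rise was OCT1, an organic cation and carnitine transporter, which read 832, 1221 and 794 in WT with sucrose, against 2.99, 2.67 and 1.71 in WT without sucrose, a log2 change of 5.68 ± 0.23 (SE; adjusted p = 6.8e-09). AT2G25625 read 377, 323 and 572 in WT with sucrose, against 7.64, 8.34 and 8.69 in WT without sucrose, a change of 4.14 ± 0.30 (SE; adjusted p = 3.7e-07). Both were below 10 units in all 3 arrays without sucrose. ATC, a relative of the flowering repressor TFL1, read 1556, 1489 and 1191 in WT with sucrose, against 190, 215 and 189 in WT without sucrose, a change of 2.73 ± 0.14 (SE; adjusted p = 3.1e-08). OSM34, an osmotin of the thaumatin family, read 4010, 6434 and 3830 in WT with sucrose, against 654, 782 and 726 in WT without sucrose, a change of 2.66 ± 0.24 (SE; adjusted p = 2.6e-06). These 2 were already well expressed without sucrose. The other large rises not yet given lay in loci without a symbol: AT5G04120 (3.53), AT4G38410 (3.33), AT4G33560 (3.16), AT1G76960 (3.15), AT5G20790 (3.14), AT1G80130 (3.07), AT4G19430 (2.93), AT5G52760 (2.71), AT1G35710 (2.66) and AT2G04460 (2.65).

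After the glutaredoxins, the largest falls of named genes included several with high signals without sucrose. AT2G05540 read 2221, 2259 and 996 in WT with sucrose, against 19790, 17180 and 18540 in WT without sucrose, a log2 change of -3.42 ± 0.24 (SE; adjusted p = 2.7e-07). AT3G15450 read 6462, 5072 and 4537 in WT with sucrose, against 24060, 23080 and 24610 in WT without sucrose, a change of -2.17 ± 0.12 (SE; adjusted p = 3.6e-08), and its neighbour on chromosome 3, AT3G15440, read 9.86, 19.1 and 8.44 in WT with sucrose, against 177, 133 and 147 in WT without sucrose, a change of -2.58 ± 0.29 (SE; adjusted p = 1.6e-05). THI2.2, an antimicrobial thionin, read 1203, 1167 and 943 in WT with sucrose, against 6926, 6244 and 8618 in WT without sucrose, a change of -2.69 ± 0.13 (SE; adjusted p = 1.8e-08). All of these stood apart between groups, which was a condition for entering the list of largest falls. CCS, the copper chaperone of superoxide dismutase, read 1458, 1840 and 1210 in WT with sucrose, against 7997, 8330 and 7964 in WT without sucrose, a change of -2.44 ± 0.11 (SE; adjusted p = 1.5e-08). GAT1_2.1, a glutamine amidotransferase, read 55.5, 252 and 251 in WT with sucrose, against 720, 683 and 606 in WT without sucrose, a change of -1.99 ± 0.36 (SE; adjusted p = 9.6e-04), with 1 array with sucrose far below the other two. The remaining loci among the 20 largest falls were AT2G20670 (-2.48), AT2G15880 (-2.50), AT2G30600 (-2.21), AT4G37220 (-2.17), AT3G10020 (-2.00) and AT3G54070 (-1.98).

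The sucrose response of the ESTpro:FUS3 line was set beside that of WT by the interaction of the same fit, which called 5253 probe sets (23.1%). The genes below were chosen for their size in WT, which by itself favours a smaller value in the line. Of the 20 largest WT rises, 17 had a called difference in the direction of a smaller or opposite response in the line, and 3 had none called. OCT1 changed by 0.82 ± 0.23 in the line, against 5.68 ± 0.23 in WT (SE; adjusted p of the difference = 1.7e-07). PRX52 changed by 0.04 ± 0.29 in the line, against 3.70 ± 0.29 in WT (adjusted p = 2.1e-05). For AT1G76960 the direction was opposite, -2.34 ± 0.28 in the line and 3.15 ± 0.28 in WT (adjusted p = 3.6e-07), and AT4G19430 likewise had -1.05 ± 0.32 in the line and 2.93 ± 0.32 in WT (adjusted p = 2.2e-05). BGLU28, AT5G04120 and OSM34 are the 3 without a called difference, BGLU28 with 3.68 ± 0.24 in the line and 2.83 ± 0.24 in WT (adjusted p = 0.095). Of the 20 largest WT falls, 10 were called smaller or opposite in the line, 1 larger and 9 not called. The larger one was AT2G05540, at -5.14 ± 0.24 in the line and -3.42 ± 0.24 in WT (adjusted p = 0.002). BHLH101 turned direction, with 1.60 ± 0.17 in the line and -2.04 ± 0.17 in WT (adjusted p = 1.2e-07). ROXY2 changed by -0.15 ± 0.16 in the line, against -2.23 ± 0.16 in WT (adjusted p = 1.7e-05), while for AT3G62950 the values were -3.65 ± 0.29 in the line and -4.55 ± 0.29 in WT (adjusted p = 0.14).

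**Figure D5:**
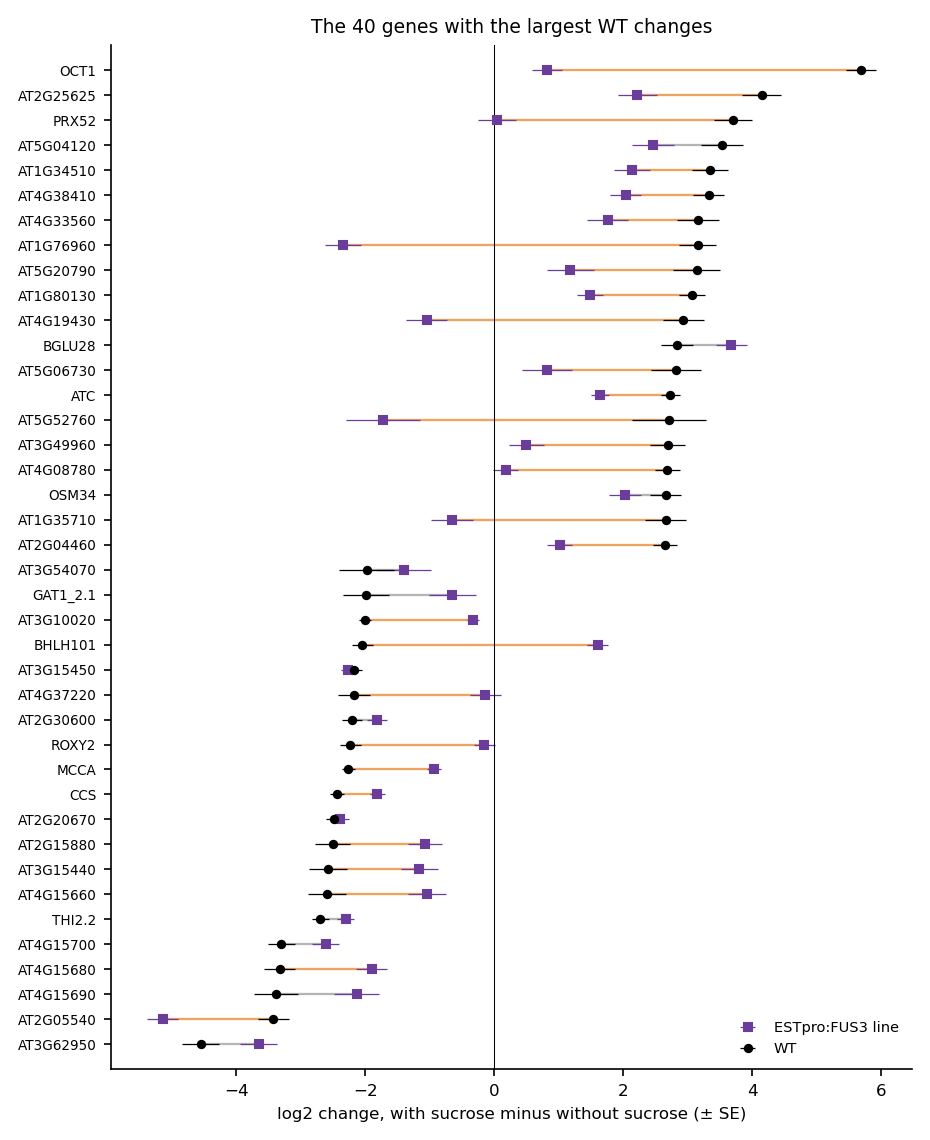
Rows are the 20 largest rises and 20 largest falls in WT; the x axis is the log2 change, with sucrose minus without sucrose, and whiskers are SEs. Purple squares stand for the ESTpro:FUS3 line and black dots for WT, and an orange bar joins them where the difference was called (adjusted p under 0.05) and a grey bar where it was not; OCT1 is at 0.82 in the line and 5.68 in WT.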

How the data were processed

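The arrays are Affymetrix ATH1. The deposited values are intensities, 1 linear signal per probe set and array. They are MAS5 values that the authors made in Affymetrix Expression Console, per the submitters' processing notes, with no version of either given in the sources used here. On every array the mean of the signals without the highest and lowest 2% lay between 1000.08 and 1000.09, so the deposited arrays share 1 scale. No 2 arrays held identical values, and no detection calls were used.

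Here 16 was added to each signal before log2. Group means of the 12 arrays were fitted with limma 3.58.1 in R 4.3.3, with variances moderated along a trend on mean level, no replicate block, and Benjamini-Hochberg adjustment over 22746 probe sets, after 64 controls were left out. Single values were compared by exact two-sided permutation tests. The fit was tested on simulated data with 200 of 22746 probe sets changed in the contrast of WT with and without sucrose. It called 78% of those changed by a log2 of 1 and 91% of those changed by 2, with 8 false calls. In the data 26.0% of probe sets were called, a far larger share than was changed in the simulation. The adjusted p depends on that share, so these rates and the number of false calls do not carry over to the data. Python 3.11.15 and matplotlib 3.10.9 made the plots.

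Gene names come from the platform's probe table, which gives a single gene for 13513 probe sets, several for 503 and none for 8730, all of them tested. Of the probe sets with 1 gene, 13436 were matched to TAIR10.1, whose positions are given. A locus counts as measured where a probe set names it alone, and the one with the highest mean stands for it. The gene groups and lists were chosen with earlier results of these data known. The peroxidase list was extended to the whole family after values were seen, 6 wrongly matched loci were dropped from families, and organelle genes were matched by symbol.

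Named genes are the 20 largest called rises and falls with 1 gene and groups that do not overlap, up to 6 called members of each group by smallest adjusted p, any member of groups with at most 12 measured, and the reference genes. The remaining called members of the sugar transport, amino acid breakdown, glutaredoxin, expansin, peroxidase, beta-glucosidase, glycosyltransferase, glutathione S-transferase and carboxypeptidase groups that the text names were named after their values were seen. Same-numbered arrays of the 2 WT groups deviated from their group means with correlations of 0.016, -0.002 and 0.016, so the numbers were not taken to pair them. Alternatives covered the value added, the scaling, a filter on dim probe sets, the arrays in the fit, the replicate block, moderation and the size of change. Promoter motifs were not analysed here.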

Additional observations from a re-analysis of the deposited data

Results flagged for a closer look

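The genes named in the report were tested for a difference between the sucrose response of the ESTpro:FUS3 line and that of WT (limma interaction). Of 170 genes, 95 passed at an adjusted p under 0.05. At the same threshold 23.1% of all probe sets passed, a share to which that of the named genes cannot be compared. The values below are log2 differences, the response in the line minus the response in WT, on 3 arrays in each of the 4 groups. The genes were picked for their WT response, and the difference tested contains that same WT response. Such picking by itself raises the share of genes that pass. The line is a single one, and its medium is the one for which the labels name estradiol. Line, FUS3 and estradiol therefore cannot be told apart.

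Among sugar and starch genes, the differences were SWEET13 -1.13, SWEET17 -1.13, SWEET11 -0.89, TMT2 0.73, cwINV6 -1.87, AT3G59480 0.93 and DPE1 0.65. The SnRK1 subunit AKINBETA1 had 0.42 and the glycolysis locus AT5G63680 -0.36. Among amino acid breakdown genes, the differences were MCCA 1.33, IVD 1.24, ALDH6B2 0.71, MCCB 0.59, ETFQO 0.46, AT4G33150 0.81 and AT5G38710 -1.16. In the glutaredoxins, the differences were AT1G06830 -2.21, AT2G47880 -1.85, AT4G33040 -1.50, AT5G18600 -1.41, ROXY2 2.08, AT4G15660 1.56, AT4G15680 1.43 and AT3G62930 0.70. For nitrogen, sulfur, glucosinolate and flavonoid genes, the differences were BCAT4 -1.27, AT3G25790 -0.89, UGT74B1 -0.88, SIR -0.76, AT2G31790 -0.63, UGT78D1 -0.44 and GTR1 -0.41. Iron genes ran the other way, with differences of BHLH101 3.65, AT1G47400 2.23 and PYE 1.06. Photosynthesis and chlorophyll genes had differences of LHCB4.2 -1.48, PSAN -1.39, LHCB4.3 -1.34, LHCB4.1 -1.12, AT1G56190 -1.03, CHLM -0.87, PSBY -0.84, ATPC1 -0.80, HPR -0.76, PSBW -0.68 and CHLI2 -0.62. Cell wall genes and peroxidases had differences of PRX52 -3.66, AT4G08780 -2.51, EXLB1 -2.38, AT3G49960 -2.19, AT5G06730 -2.01, XTH26 -1.92, Prx37 -1.90, EXPA8 -1.59, EXPB3 -1.58, AT1G34510 -1.21, EXPA4 -0.97 and AT3G01190 0.88. Genes of small-molecule conjugation and release had differences of GSTU23 -1.64, GSTU20 -1.34, scpl28 -0.93, UGT71C1 -0.83, UGT72E2 -0.75, GSTU27 -0.61, scpl48 -0.55, UGT73B1 0.86 and BGLU19 2.68. Regulators and cell type markers had differences of WRKY42 -2.41, FMA -1.52, WRKY53 -1.33, GH3.3 -1.08, STOMAGEN -0.51, IAA18 -0.43, HCT -0.36, GI 1.16, LEA4-5 4.37, OLEO3 4.02 and PAP85 3.81. The other large rises had differences of AT1G76960 -5.49, OCT1 -4.87, AT5G52760 -4.43, AT4G19430 -3.98, AT1G35710 -3.31, AT5G20790 -1.96, AT2G25625 -1.93, AT2G04460 -1.63, AT1G80130 -1.59, AT4G33560 -1.40, AT4G38410 -1.29 and ATC -1.09. The other large falls had differences of AT2G05540 -1.71, AT4G37220 2.04, AT3G10020 1.68, AT2G15880 1.43, AT3G15440 1.42 and CCS 0.63.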

How the results depend on the processing

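No called gene among those named turned direction under any alternative run; GAPC2, HCT, GUT2, PYK10, LHCB4.1 and AT2G28390, all uncalled and near 0, changed sign under some. Of the 170 named genes 153 were called, and 27 of these lost their call under at least 1 of the alternatives other than the 2-fold minimum. Beside the losses given in the report, quantile normalization and subtracting array medians each ended the calls of APL4 (adjusted p = 0.191 and 0.104), GRX480 (0.198 and 0.103) and AT5G38710 (0.109 and 0.0581). Quantile normalization ended those of SWEET11 (0.148), SWEET17 (0.071), PWD (0.0581) and WRKY53 (0.078), and subtracting array medians those of GH3.3 (0.0593) and AT1G20950 (0.118). The fit on the 6 WT arrays alone ended 7 named calls: SWEET11, APL4, PYE, PSAN, ATPC1, SPCH and IAA18. An ordinary linear model without moderation ended 11, and moderation without the trend ended 8. Adding 1 before log2 instead of 16 ended that of ATPC1 (adjusted p = 0.0554). Of the named genes not called, 8 gained a call under some alternative: AT4G34270, AT4G26410, PEX4, LEA4-5, OLEO3, STOMAGEN, LHCB4.1 and LHCB4.2. Over all probe sets, leaving out single arrays gave 4540 to 6016 calls, 2800 to 3675 higher and 1740 to 2341 lower, with 4474 to 5009 for the difference between the FUS3 line and WT. Other added values, quantile normalization, the filter on dim probe sets, the 6 WT arrays alone and other moderation gave 5265 to 5970 calls in WT. Subtracting array medians gave 2333 higher and 4235 lower. A 2-fold minimum left 1247 calls in WT, 930 higher and 317 lower, and 1959 for the difference. The replicate block gave 6124 calls, 3715 higher and 2409 lower, and 5550 for the difference. Among the named genes it ended the call of APL4 (adjusted p = 0.0538) and added 2. Deviations of same-numbered arrays were compared only between the 2 WT groups, so whether the numbers pair arrays of the FUS3 line was not tested. Subtracting array medians took the median change of all probe sets to -0.13, and quantile normalization to -0.04. Among groups, the median of UDP-glycosyltransferases turned to -0.12 with array medians subtracted, and that of the glutaredoxins turned to 0.10 when the 40% dimmest probe sets were left out, which removes several of the loci that fell; the cause of other shifts was not tested. Dim genes limit the calls: the median SE was 0.33 in the dimmest of 5 equal bins of probe sets and 0.09 in the brightest.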
